A study of Mus musculus with 24 samples.

Results

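Neurons of the primary motor cortex were compared between mice trained for 8 days on a forelimb reaching task (late) and mice that were not trained (control). All mice were Fos-CreER::Ai9, a line in which the promoter of the activity gene Fos drives a recombinase that 4-hydroxytamoxifen (4-OHT) switches on. Neurons active around that time then express the tdTomato reporter for good. Both the late and the control mice were given 4-OHT, and the tissue was taken 3 days after labelling, so that the RNA of a labelled cell was read days after the activity that labelled it. Each stage had 2 pools, each of 2 mice (1 marked M and 1 marked F) and each sequenced as 1 library per hemisphere. The late and control pools made up 8 of the 24 libraries of the series, 2 pools against 2. The 2 pools (4 libraries) of early mice, of the same genotype, trained for 2 days and given 4-OHT, also entered the gene tests, where they add to the estimate of the spread. Ages are not given in the sources used here. Members were single cells chosen by raw UMIs, which are molecules counted once each. A projection neuron had at least 1 UMI of Slc17a7, the vesicular glutamate transporter, and was placed by Cux2, Rorb, Fezf2 or Foxp2, whichever had most UMIs. An interneuron had at least 2 UMIs of Gad1 and Gad2, the enzymes of GABA synthesis, and was placed by Pvalb, Sst or Vip in the same way. These rules gave 9720 neurons of 32857 cells kept in the 4 pools. The control pools held 1820 and 2915 of them and the late pools 2401 and 2584.

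The 4 projection markers follow the depth of the cortex. Cux2 is a homeobox gene of the upper layers, Rorb a nuclear receptor enriched in the middle layers, Fezf2 a zinc finger gene that specifies layer 5 output neurons, and Foxp2 a forkhead gene of layer 6. Pvalb, Sst and Vip mark fast-spiking interneurons, dendrite-targeting interneurons and interneurons that mostly inhibit other interneurons. Strong activity switches on immediate early genes such as Fos, Egr1 and Arc within minutes and for hours only, and the factors they encode act on slower genes of synapses and growth. Motor skill learning is known for the turnover of dendritic spines on the projection neurons of this area.

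Promoters are shown for the genes that the results turn on: Cck, the only neuropeptide gene called, Nptn, lower in late projection neurons of both kit pairs, Fosb, higher in both for the summed pools, and Nr4a1, which went opposite ways in the 2 pairs. Each line gives the 250 bases before the RefSeq start of the gene (GRCm38.p6), 5′ to 3′ on the strand of the gene. Capitals mark TGACG, the core of the cAMP response element bound by CREB, on either strand, where it reads CGTCA. The full element TGACGTCA and the AP-1 site TGANTCA were searched too and had no match in these 4 windows. TGACG was found in 17.8% of 32851 promoters of this length, TGACGTCA in 1.55% and TGANTCA in 6.75%, and every TGACGTCA also holds TGACG. Nr4a1 had 4 matches of TGACG and the other three had 1 each.
Cck (chr9:121495695-121495944, minus strand): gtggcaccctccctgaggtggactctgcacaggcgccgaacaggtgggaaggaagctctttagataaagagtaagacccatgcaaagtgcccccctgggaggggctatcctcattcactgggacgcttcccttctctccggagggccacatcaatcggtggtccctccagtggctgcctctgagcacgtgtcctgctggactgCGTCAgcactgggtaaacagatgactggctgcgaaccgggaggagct
Nptn (chr9:58581990-58582239, plus strand): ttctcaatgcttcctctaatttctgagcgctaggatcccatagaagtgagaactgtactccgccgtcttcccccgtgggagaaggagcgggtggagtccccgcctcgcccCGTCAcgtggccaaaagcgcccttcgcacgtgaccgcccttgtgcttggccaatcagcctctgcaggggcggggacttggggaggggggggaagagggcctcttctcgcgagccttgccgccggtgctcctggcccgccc
Fosb (chr7:19310046-19310295, minus strand): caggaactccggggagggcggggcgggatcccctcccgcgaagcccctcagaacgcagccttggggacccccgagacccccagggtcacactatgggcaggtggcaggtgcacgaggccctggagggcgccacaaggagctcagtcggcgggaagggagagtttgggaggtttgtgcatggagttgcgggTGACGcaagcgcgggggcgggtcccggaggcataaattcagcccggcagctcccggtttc
Nr4a1 (chr15:101266596-101266845, plus strand): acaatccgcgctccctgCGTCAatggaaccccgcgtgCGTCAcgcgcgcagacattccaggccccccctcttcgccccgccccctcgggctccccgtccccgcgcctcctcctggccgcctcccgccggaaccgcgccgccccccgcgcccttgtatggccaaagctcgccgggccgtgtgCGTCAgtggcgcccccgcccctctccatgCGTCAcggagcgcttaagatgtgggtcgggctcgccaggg

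Some features of the libraries touch every result. The median share of mitochondrial UMIs per cell was higher in late in both pairs in 7 of 7 subtypes (1.12% and 1.51%, then 2.04% and 2.52%, in Cux2 neurons), and its part in the differences below was not tested. The 8 libraries held 541 to 8477 barcodes and 5260446 to 30470621 UMIs, the lowest of both in the left library of control replicate 1. Shared barcodes placed replicate 1 of both stages in one class of library kit and replicate 2 in the other. Late minus control was therefore read within the kit, as pair 1 (late 1 minus control 1) and pair 2 (late 2 minus control 2). Pair 1 also shares a batch label, while the pools of pair 2 carry different ones, so that batch and stage cannot be told apart in pair 2. Both early pools fell in the kit class of pair 2. Early levels given below are therefore within the kit only beside control 2 and late 2. Late and control libraries shared at most 1.48% of the barcodes of the smaller one. Neurons were deeper in late than control in pair 1 and shallower in pair 2 (medians of 7003 and 9208 UMIs, then 10724 and 7189, in Cux2 neurons). In control replicate 1, 0% to 0.29% of the cells of a subtype had a UMI of Xist, the RNA of the inactive X chromosome, against 34.8% to 58.1% in the other three pools. That goes against its label of a male and a female mouse. Counts of called genes, Cck in Sst neurons and 2 subtype shares are therefore also given without it or in male cells only. Most other genes and the gene lists are not given in that way. Of 7 other markers of each subtype, 5 were highest in their own subtype within its class for Cux2, 6 for Rorb, 7 for Foxp2, 6 for Pvalb, 6 for Sst and 7 for Vip neurons. For Fezf2 neurons only 3 of 7 were, with Bcl11b and Crym highest in Foxp2 cells and Fam84b and Pou3f1 in Cux2 cells, and these neurons are named here by their rule alone.

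Fewer of the late than of the control neurons were Cux2 neurons in both pairs, and more were Fezf2 and Vip neurons. Cux2 neurons made up 27.5% and 19.7% of assigned neurons in the control pools and 18.5% and 15.6% in the late pools. Their mean was 23.6% ± 5.47 in control and 17.04% ± 2.04 in late (SD, n = 2 each), and the groups did not overlap. Fezf2 neurons made up 14.2% and 17.3% in control and 20.4% and 20.4% in late pools, with means of 15.7% ± 2.14 and 20.4% ± 0.04 (SD, n = 2 each). Vip neurons stood at 10.1% and 10.7% in control and 12.8% and 12.2% in late pools, again without overlap. Rorb, Foxp2 and Pvalb neurons went opposite ways in the 2 pairs, and Sst neurons were lower in late by 0.59 and 0.33 percentage points. An exact permutation of 2 pools against 2 cannot go below p = 0.33, so the shares are given as a description, with no call. With late contralateral libraries only, the Vip share differed by 0.86 and -0.03 points in the 2 pairs, so that it no longer had the same sign in both. In male cells the differences were -8.34 points for Cux2 and 2.98 for Fezf2.

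**Figure D1:**
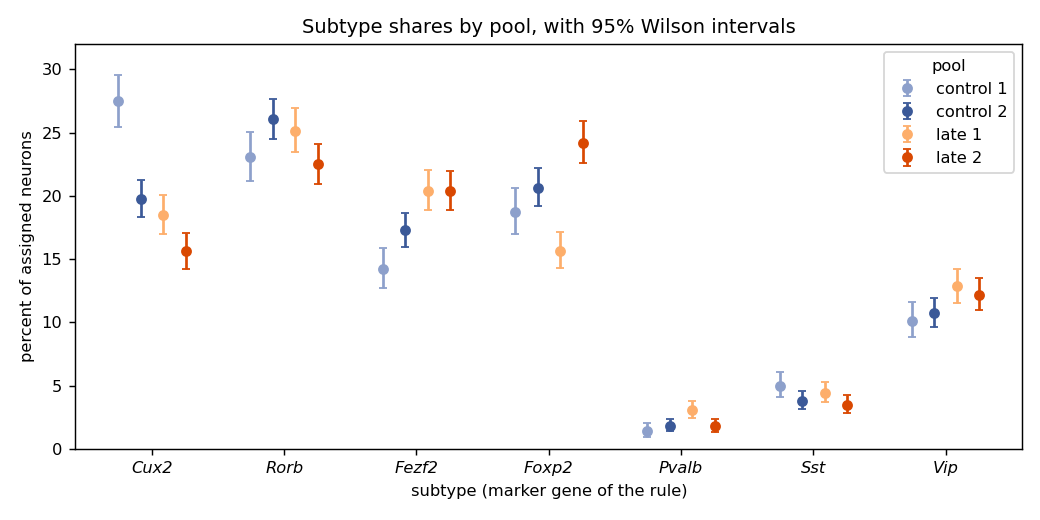
Share of each subtype among assigned neurons (y axis, percent) in the 4 pools (points, with 95% Wilson intervals that cover counting error only). Both late pools lie below both control pools for Cux2, and above them for Fezf2 and Vip.

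Across genes, the 2 pairs did not change together. CPM are the UMI counts of a pool scaled to one common total. Values in log2 CPM also carry a prior count of 2 and TMM normalization, which rescales the totals of the pools. Values in plain CPM carry neither, so the 2 units do not convert exactly. Genes with a mean of at least 5 log2 CPM were compared. The change in pair 1 and that in pair 2 had Pearson correlations of -0.139 in Cux2 (5831 genes), -0.128 in Rorb, -0.04 in Fezf2 and -0.03 in Foxp2 neurons. In Pvalb, Sst and Vip neurons they were -0.039, -0.085 and -0.145. Spearman correlations ran from -0.133 to -0.02. Between 44.8% and 49.4% of these genes had the same sign in both pairs. Genes of one pool share its depth and kit and are not independent replicates, so these values carry no p. Typical changes were of like size in both pairs, with SDs of 0.28 and 0.33 in Cux2 neurons. Of the genes that differed by at least 0.5 in both pairs, 9 of 36 had the same sign in Cux2, 12 of 39 in Rorb, 21 of 44 in Fezf2 and 13 of 25 in Foxp2 neurons, and 246 of 552, 83 of 216 and 48 of 126 in Pvalb, Sst and Vip neurons.

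**Figure D2:**
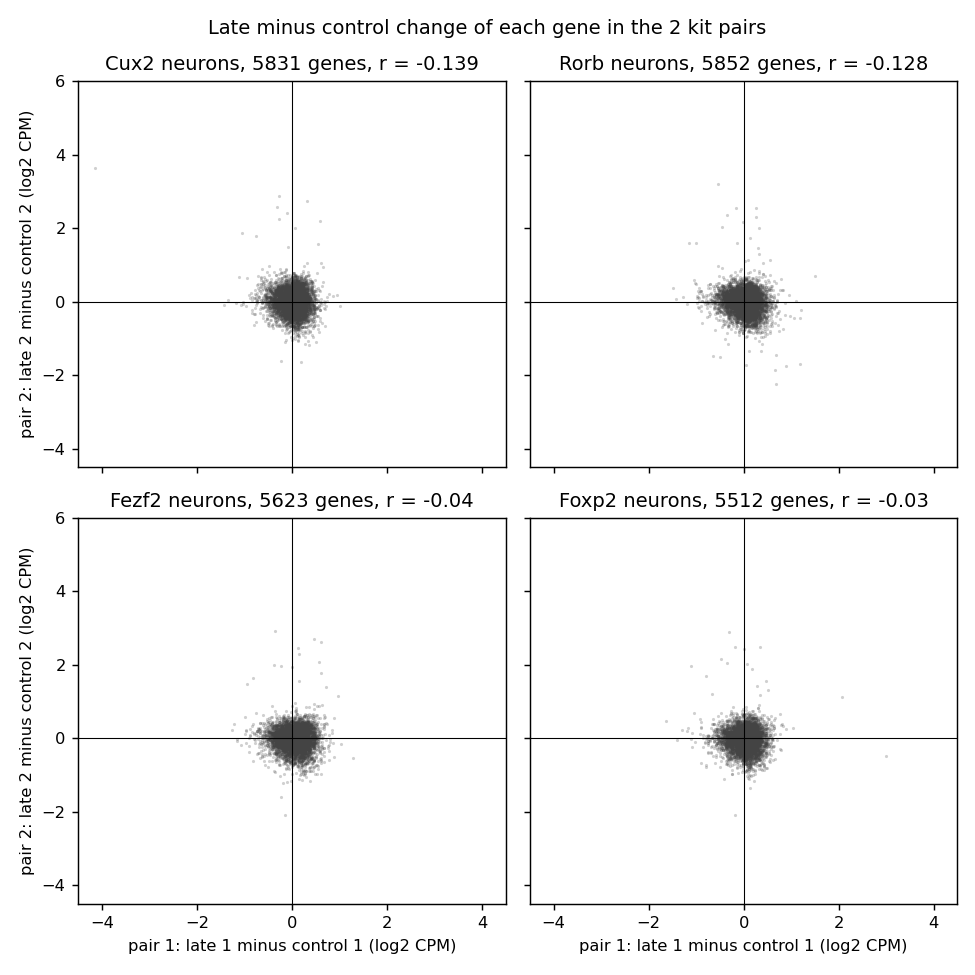
Late minus control change (log2 CPM) of each gene of at least 5 log2 CPM in pair 1 (x axis) and pair 2 (y axis), 1 panel per projection subtype, with 5512 to 5852 genes. The clouds are round, with r from -0.139 to -0.03.

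The late and control pools were then tested gene by gene. To be called, a gene needed the same sign in both pairs and, in edgeR's quasi-likelihood test on the 6 motor cortex pools with stage and kit, an adjusted p (Benjamini-Hochberg, per subtype) under 0.05. In the projection neurons 0 genes were called, of 13239 tested in Cux2 (0%), 12999 in Rorb (0%), 13512 in Fezf2 (0%) and 12910 in Foxp2 neurons (0%). At an unadjusted p under 0.05 stood 617, 495, 737 and 694, or 4.66%, 3.81%, 5.45% and 5.38% of the genes tested. DESeq2 called 0, 0, 0 and 2, Mbp among the 2 in Foxp2 neurons. In the interneurons 3 of 29086 gene and subtype pairs were called (0.0103%). They were 2 genes of 7400 in Pvalb (0.027%), 1 of 9931 in Sst (0.0101%) and 0 of 11755 in Vip neurons (0%), while DESeq2 called 0, 1 and 0, the 1 being Cck in Sst neurons. At an unadjusted p under 0.05 stood 4.49%, 5.0% and 4.26% of the genes of Pvalb, Sst and Vip neurons, the last being 501 genes.

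The count depended on the pools and cells fitted. Another fit took the replicate pair as a block over the 4 late and control pools alone. It left 1 residual degree of freedom to estimate the spread, against 2 in the main fit. It called 0 of 12871 genes in Cux2, 5 of 12857 in Rorb, 59 of 13147 in Fezf2 and 73 of 12590 in Foxp2 neurons. In the interneurons it called 16 of 7817 in Pvalb, 24 of 9358 in Sst and 0 of 11177 in Vip neurons. Of those 137 projection calls, 123 were higher in late, and 88 were pseudogenes by the annotation, whose reads can be shared with their parent genes. The share of pseudogenes among all genes tested was not counted. Without control replicate 1 the 4 projection subtypes together had 1123 calls and the interneurons 187. Without late replicate 1 they had 1076 and 128. These fits have only pair 2, and those without control or late replicate 2 have only pair 1. No second pair then had to share the sign. Every fit without 1 pool, early pools included, also left fewer residual degrees of freedom than the main fit. The part of this in the counts was not tested. In the main fits of the 4 projection subtypes, 0 genes passed the adjusted p whatever their sign. Without control replicate 2 the counts were 80 and 50, without late replicate 2 they were 106 and 69, and without early replicates 1 and 2 they were 54 and 62, then 68 and 43. In male cells only, 2 projection and 5 interneuron calls were made, with Pvalb neurons too few to test. When a cell with UMIs of several markers was counted in each of those subtypes, and cells of both transmitter classes were kept, Pvalb neurons had 57 calls, 10 higher and 47 lower, where both main calls were higher. Sst neurons then had 12, of which 11 were lower, and the projection neurons 0.

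Cholecystokinin (Cck, ENSMUSG00000032532, chromosome 9, 121489824 to 121495694 in GRCm38), a neuropeptide of many projection neurons and of a class of interneurons other than Sst neurons, fell in Sst neurons. Its level there was 9.01 and 8.21 log2 CPM in control and 7.81 and 6.89 in late pools. The early pools, both of the kit class of pair 2, stood at 7.63 and 7.62. Both late pools were below both controls, and the fitted change was -1.27 (SE 0.184, edgeR adjusted p 0.0131). The cells behind it were few. Cck UMIs were in 27 of 91 and 29 of 110 Sst neurons of the control pools and in 42 of 106 and 14 of 89 of the late ones. So the share of cells with a UMI was higher in late in pair 1 (29.7% and 39.6%) and lower in pair 2 (26.4% and 15.7%). The 5 highest cells held 83.8%, 78.9%, 65.2% and 89.3% of its UMIs in control 1, control 2, late 1 and late 2, and in control 1 a single cell held 167 of 296. With at least 2 UMIs of Sst asked of each cell the change was -0.10, and in male cells only it was -0.20. Neither was called.

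Other genes were read beside Cck in Sst neurons, among them markers of other neuron types. Neurogranin (Nrgn), which binds calmodulin in dendrites, stood at 8.29 and 7.78 log2 CPM in control and 7.29 and 5.73 in late Sst neurons, and the fit gave -1.47 (SE 0.252, adjusted p 0.0534 by edgeR). Cnr1, the cannabinoid receptor of Cck interneurons, was at 9.35 and 8.84 in control and 7.79 and 8.10 in late (edgeR adjusted p 0.0534). Neither passed the threshold. A UMI of Cnr1 was in 52.7% and 74.5% of the Sst neurons of the control pools and in 63.2% and 67.4% of the late ones. In control 1 a single cell held 214 of the 376 Cnr1 UMIs. The summed level of 4 projection neuron genes (Slc17a7, Neurod6, Neurod2 and Camk2a) in the Sst neurons was 150.6 and 144.6 CPM in control and 106.4 and 99.9 CPM in late pools, lower in both pairs. Slc17a7 was at 67.9 and 11.3 CPM in control and 8.6 and 8.2 CPM in late, while Camk2a was at 64.5 and 131.0 CPM, then 92.1 and 91.7 CPM, so that its pairs differed in sign. Cck is itself 1 of 7 markers of Vip neurons, and 3 others of them, Adarb2, Prox1 and Htr3a, were lower in both pairs of the Sst neurons. Adarb2, an RNA editing family gene of that interneuron class, was at 77.8 and 73.0 CPM in control and 28.8 and 16.4 CPM in late, with a fitted change of -1.66 (edgeR adjusted p 0.0534). Tac2 was higher in both pairs, and Calb2 and Crh differed in sign. The 6 markers other than Cck summed to 299.6 and 334.3 CPM in control and 199.5 and 328.5 CPM in late. The part of such RNA in the result was not tested. Microglial markers stood at 529.6 CPM in the Sst neurons of control 1 and at 27.4 to 131.5 CPM in the other late and control pools. Their part was examined only by leaving out cells with a UMI of any of a set of glial genes. Cck was then still called, at -1.35.

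**Figure D3:**
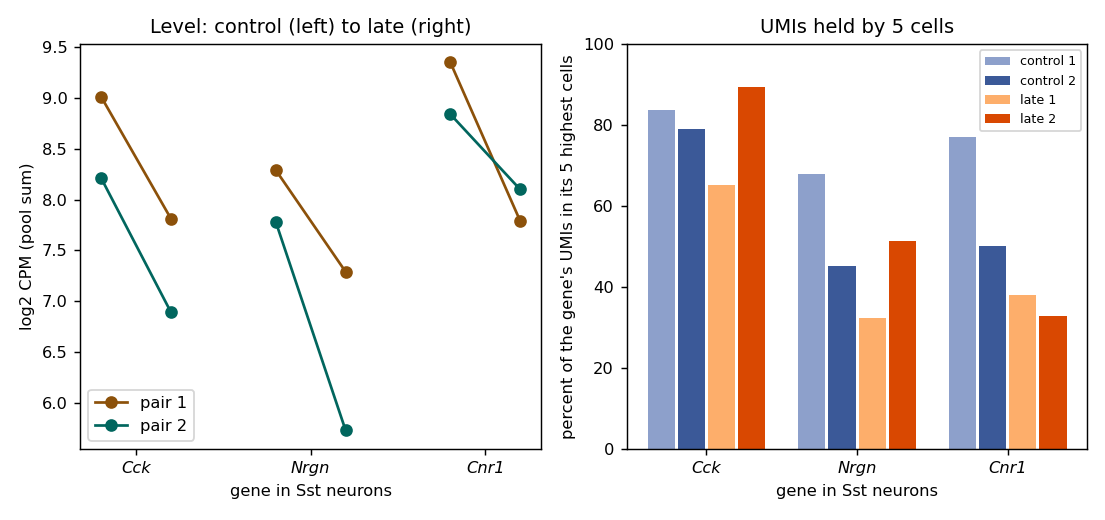
Left, log2 CPM of 3 genes in the Sst neurons, from the control to the late pool of each pair (lines). Right, the percent of each gene's UMIs held by its 5 highest cells in each pool (bars), from 32.2% to 89.3%.

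In Vip neurons Cck was higher in late in both pairs, though not past the threshold. There it was at 11.08 and 10.67 log2 CPM in control and 11.72 and 11.57 in late pools, and the fit gave 0.77 (SE 0.205, adjusted p 1.0 by edgeR). Pair 1 rested on 1 library there: late 1 had 4307.9 CPM in the contralateral and 1976.7 CPM in the ipsilateral library, the latter below the right library of control 1 (2302.6 CPM). In Cux2 and Rorb neurons, which hold most Cck of the projection subtypes listed here, the pair changes were 0.30 and 0.28, and 0.31 and 0.25. In Fezf2 and Foxp2 neurons they differed in sign between pairs.

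Both genes called in Pvalb neurons rested on few UMIs, and each call was lost without late replicate 2 or without control replicate 2. CT010467.1 (ENSMUSG00000106106, chromosome 17, 39846353 to 39848827), annotated as ribosomal RNA and overlapping Gm42418 on the opposite strand, had 2 and 4 UMIs in the control and 9 and 73 in the late pools. Whether reads of Gm42418 entered this count was not tested. The fitted change of CT010467.1 was 4.72 (SE 0.704, edgeR adjusted p 0.0249), but pair 1 differed by only 0.13 and pair 2 by 4.66. The fitted change thus lay above both pairs, and its SE does not measure how far apart they were. Without late replicate 2 the change was 0.16, and without control replicate 2 it was 0.17. Across the 7 subtypes CT010467.1 was higher in late in pair 2 in 7 of 7, by 4.18 to 5.55, and in pair 1 in 1 of 7. Lars2 (ENSMUSG00000035202, chromosome 9, 123366927 to 123462666), the mitochondrial leucyl-tRNA synthetase, had 0 and 21 UMIs in control and 6 and 49 in late pools, from 25, 53, 73 and 46 cells. Its fitted change was 2.56 (SE 0.422, edgeR adjusted p 0.0434). Pair 2 differed by 2.37, while the size of the pair 1 difference was set by the prior count, since control 1 had 0 UMIs. Across the subtypes Lars2 was higher in late in pair 2 in 7 of 7, by 1.6 to 2.52, and in pair 1 in 4 of 7. The pair 2 difference was thus not particular to Pvalb neurons. Without late replicate 2 the fit gave 5.10 and without control replicate 2 it gave 4.83, values that depend on the prior count too, and neither was called. With stricter cells the change was 2.51 and not called. The mitochondrial ribosomal RNA mt-Rnr1 went the same way in pair 2 in all 7 subtypes, by 1.96 to 2.78, and in pair 1 in 1 of 7. Early replicate 2 also held more CT010467.1 in Pvalb neurons (6.56 log2 CPM) than early replicate 1 (5.28).

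Other genes of Pvalb neurons had large differences that did not pass. Npy, neuropeptide Y, was at 11.44 and 11.89 log2 CPM in control and 9.80 and 8.26 in late pools, and the fit gave -2.58 (SE 0.493, adjusted p 0.129 by edgeR). The 5 highest cells held 62.4% to 86.0% of its UMIs, and the early pools stood at 9.75 and 11.79. Lamp5, a marker of another interneuron class, was at 5.84 and 6.94 in control and 4.26 and 4.97 in late pools. It was counted in 4 of 25, 11 of 53, 6 of 73 and 2 of 46 cells. Nfix, a nuclear factor gene, was at 6.43 and 7.47, then 5.51 and 5.48, and was lower in both pairs in 6 of 7 subtypes. Tac1, the gene of substance P and a peptide of many Pvalb neurons, went the other way, with 9.61 and 8.93 in control and 10.20 and 9.94 in late pools (fitted change 0.81, SE 0.193, edgeR adjusted p 0.353). In Sst neurons Tac1 was at 5.61 and 4.77, then 6.23 and 6.41, and so was higher in late in both pairs of each subtype in which it was tested. With 25 cells in control replicate 1, the Pvalb values are the least precise of the 7 subtypes. Ndfip1, an adaptor of ubiquitin ligases, was higher in late in both pairs of the Sst neurons, with a fitted change of 1.16, and in those of Fezf2 neurons, where it was at 3.77 and 5.65, then 4.75 and 6.80. Over the 7 subtypes Ndfip1 was higher in both pairs in 3, with pair 1 lower in late in the other four. In Vip neurons Syt16 and 1810010H24Rik had fitted changes of -0.92 and -0.91. Nrgn was at 8.08 and 7.29 there, then 7.21 and 6.18, and the chaperonin subunit Cct3 at 5.76 and 7.03, then 6.57 and 7.83. Over the 7 subtypes Cct3 was higher in both pairs in 7, and Nrgn was lower in both in 5. None of these passed, and for Nrgn and Cct3 in Vip neurons the edgeR adjusted p was 1.0.

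In the projection neurons none of the genes with the smallest p of the same sign in both pairs passed. H1fx was among them in 4 subtypes, Dpysl2 and Wdr89 in 2 each, and every other one, Nptn included, in 1. Neuroplastin (Nptn, ENSMUSG00000032336, chromosome 9, 58582240 to 58657955), a synaptic adhesion molecule and subunit of the plasma membrane calcium pump, was at 9.36 and 9.73 log2 CPM in control and 8.79 and 9.21 in late Cux2 neurons. Both late pools were below both controls, the fitted change was -0.54 (SE 0.122) and the edgeR adjusted p 0.919. Its fitted changes were -0.50 in Rorb, -0.55 in Fezf2 and -0.52 in Foxp2 neurons, and the early pools of Cux2 neurons stood at 9.72 and 9.64. In Sst neurons pair 2 differed by 0.00 and the pairs of Nptn did not share a sign in Pvalb neurons. H1fx, a linker histone, was lower in late in both pairs in 6 of 7 subtypes. In Rorb neurons it was at 6.24 and 6.43 in control and 5.38 and 5.84 in late pools, and the fit gave -0.73 (SE 0.169, adjusted p 0.993 by edgeR). Dpysl2, the collapsin response mediator of axon growth, was lower in both pairs in 7 of 7 subtypes. In Fezf2 neurons it was at 9.22 and 8.58, then 8.59 and 8.09 (fitted change -0.56, SE 0.131, edgeR adjusted p 0.809), so that late 1 lay just above control 2. Fndc5, the precursor of irisin, was lower in both pairs in 7 of 7 as well, by -0.57 and -0.74 in Fezf2 neurons. Within a single subtype, 23.7%, 22.2%, 22.6% and 22.9% of all genes were lower in both pairs in Cux2, Rorb, Fezf2 and Foxp2 neurons. There 24.5%, 24.2%, 25.6% and 25.8% were higher. In Pvalb, Sst and Vip neurons 22.0%, 21.5% and 21.8% were lower and 27.2%, 26.0% and 25.3% higher. How many of all genes share a sign over 6 or 7 subtypes was not counted. The genes above were named for a small p and the same sign in both pairs of a subtype. The subtypes of a pool were made from the same mice and libraries, so a repeat over subtypes is not a replicate.

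Further genes named in single subtypes are given as values, though most of them moved alike in other subtypes. Lower in both pairs were Mapk3 and Phc2 in 5 of 7, Nptxr in 4 of 7 and Cav2 in 4 of 6 subtypes tested. Higher in both were S100a10 in 5 of 6, Dhrs7b in 5 of 7, Lmo1 in 3 of 6 and Mbp in 2 of 7. Nptxr and Lmo1 went the other way in both pairs in 1 subtype each. How many of all genes repeat in this way was not counted. Mapk3, the ERK1 kinase, was at 6.84 and 6.72 in control and 6.34 and 6.07 in late Cux2 neurons. Nptxr, a receptor of neuronal pentraxins at excitatory synapses, was at 6.12 and 5.56, then 5.33 and 4.83 in Foxp2 neurons. Cav2 and Phc2 were lower in Rorb neurons, by -0.72 and -0.39 and by -0.60 and -0.77 in the 2 pairs. Those late pools lay below both control pools for Mapk3, Nptxr, Cav2 and Phc2, with edgeR adjusted p of 0.919, 0.862, 0.993 and 0.993. These genes were chosen for the same sign in both pairs and a small p. The share of all genes whose pools separate in this way was not counted, for these or for other genes described so. S100a10, a partner of annexin A2, was at 5.84 and 5.02 in control and 6.44 and 6.08 in late Cux2 neurons. Dhrs7b was at 4.79 and 4.75, then 5.45 and 5.68 in the same cells, and Lmo1 at 5.24 and 5.15, then 5.91 and 5.71 in Foxp2 neurons. Mbp, a myelin protein, was at 3.73 and 4.68, then 5.81 and 5.81 in Foxp2 neurons. Of its UMIs there, 5 cells held 48.5% and 13.1% in the control pools and 47.0% and 48.6% in the late ones, and oligodendrocyte markers summed to 28.1 and 47.3 CPM in control and 80.5 and 208.4 CPM in late pools. Their part in the Mbp difference was not tested.

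Calr, which encodes the chaperone calreticulin of the endoplasmic reticulum, stood higher in late in both pairs in 7 of 7 subtypes, also below the threshold. It was at 7.75 and 8.33 in control and 8.15 and 9.09 in late Rorb neurons, with the early pools at 8.74 and 8.91. Hspa1a, an inducible heat shock protein that tissue dissociation also induces, was at 4.42 and 5.03, then 5.93 and 5.72 in Rorb neurons (fitted change 1.06, SE 0.222, edgeR adjusted p 0.993). Across subtypes it was higher in both pairs in 4 of 7. Wdr89, AC149090.1, Gm9843 and Rpl37rt were higher in both pairs in 7 of 7 subtypes each. Gm9843 and Rpl37rt are annotated as processed pseudogenes, and their counts are uncertain because reads can be shared with parent genes. Wdr89 was at 6.09 and 4.63 in control and 6.60 and 5.95 in late Foxp2 neurons, so that the control pools differed from each other by more than either pair did.

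Activity-regulated genes were read in the projection neurons whatever their values, and none was called. Arc, which moves glutamate receptors out of the synapse, was at 7.86 and 7.89 log2 CPM in control and 8.58 and 7.26 in late Rorb neurons. Late 1 was thus the highest pool and late 2 the lowest. In pair 1 Arc was higher in late in all 4 projection subtypes, by 0.49 to 0.72, and in pair 2 lower in all 4, by -0.81 to -0.19. Nr4a1, an orphan nuclear receptor, had the same reversal: 8.01 and 7.90, then 8.77 and 7.11 in Rorb neurons. Its pair 1 changes were 0.15 to 0.75 and its pair 2 changes -0.85 to -0.44. Egr1 was higher in late in pair 1 by 0.46 to 0.66 and lower in pair 2 by -0.39 to -0.07. Fosb and Junb, whose products pair in AP-1, were higher in both pairs in all 4 subtypes. For Fosb, pair 1 depended on the right library of control 1. In Cux2, Rorb and Fezf2 neurons Fosb was at 34.6, 45.6 and 45.2 CPM in that library and at 61.9, 76.8 and 92.0 CPM in the left one, which lay above both late 1 libraries (42.0 and 46.4, 57.2 and 67.2, 63.1 and 71.4 CPM). In Foxp2 neurons the left one, at 81.2 CPM, lay between them (70.2 and 98.2 CPM). Fosb was at 6.02 and 6.60 in control and 6.50 and 6.94 in late Foxp2 neurons (fitted change 0.41, SE 0.147, edgeR adjusted p 0.862), with late 1 below control 2. Junb was at 7.61 and 7.96, then 8.44 and 8.20 in Fezf2 neurons, without overlap (fitted change 0.52, SE 0.164, edgeR adjusted p 0.88). In Cux2 neurons, however, Junb differed by only 0.01 in pair 2. Fos itself was at 6.50 and 7.22, then 7.26 and 7.33 in Foxp2 neurons and went down in pair 2 in Rorb neurons, by -0.45. Npas4 and Bdnf had fitted changes between -0.09 and 0.35, and those of Homer1 were 0.11 to 0.27.

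**Figure D4:**
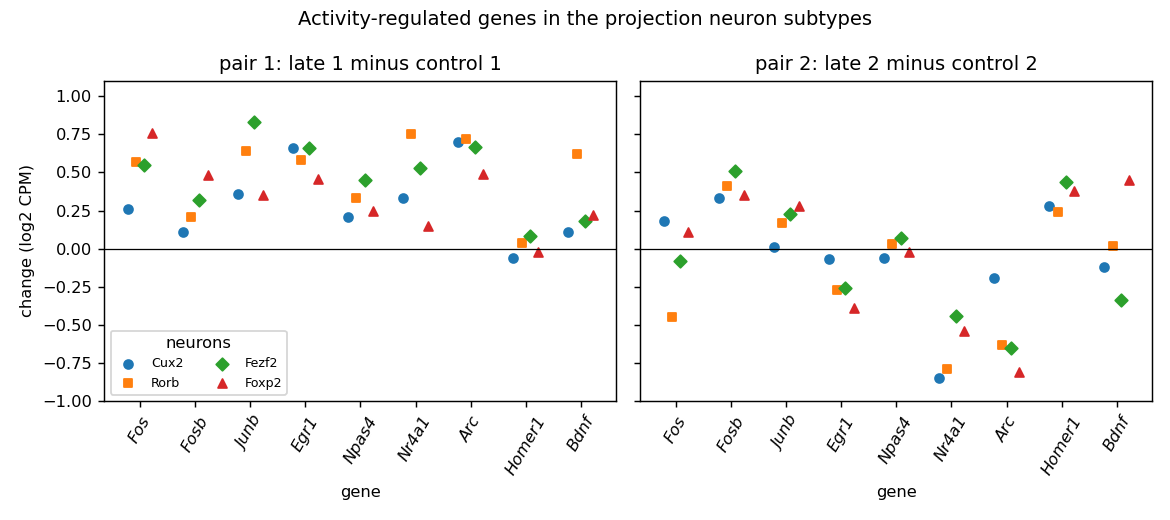
Late minus control change (log2 CPM, y axis) of 9 activity-regulated genes (x axis) in the 4 projection subtypes (symbols), pair 1 on the left and pair 2 on the right. Arc, Nr4a1 and Egr1 lie above 0 in pair 1 and below it in pair 2.

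Whole lists of genes were described by counts beside those of all genes, with no test. Of 19 immediate early transcription factors, 8 were higher in late in both pairs in Cux2, 12 in Rorb, 10 in Fezf2 and 13 in Foxp2 neurons, and 1, 0, 0 and 0 were lower. None was called. Pair 1 carried more of this: 17, 19, 16 and 19 were higher in it, against 9, 12, 13 and 13 in pair 2. Of all genes tested, 51.2%, 52.3%, 52.9% and 52.3% were higher in pair 1 and 49.6%, 49.7%, 50.0% and 50.6% in pair 2. In Pvalb, Sst and Vip neurons 8 of 12, 4 of 18 and 4 of 18 of these factors were higher in both pairs. Of all genes there, 27.2%, 26.0% and 25.3% were. Ier2, an early response gene, was at 5.45 and 5.32 in control and 6.09 and 5.86 in late Cux2 neurons, and Jun at 6.72 and 7.70, then 7.29 and 8.30 in Foxp2 neurons. Of the slower activity-induced effectors, 11 of 24, 14 of 23, 9 of 23 and 8 of 23 were higher in both pairs. Here too pair 1 held more, with 19, 22, 19 and 18 higher against 15, 14, 11 and 13 in pair 2. Gadd45b, which acts in DNA demethylation, was at 5.43 and 5.99, then 6.31 and 6.54 in Fezf2 neurons, and the secreted neuropeptide precursor gene Vgf at 7.73 and 8.19, then 8.11 and 8.60 in Cux2 neurons. Heat shock and dissociation genes had 13, 13, 15 and 13 of 20 higher in both pairs, with 2, 1, 1 and 1 lower. Many immediate early genes are themselves induced by dissociation, and the part of it in these counts was not tested.

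Ribosomal protein genes were higher in both pairs for 41 of 52 in Cux2, 33 in Rorb, 37 in Fezf2 and 35 in Foxp2 neurons, and lower for 0, 1, 0 and 1. Median fitted changes were 0.21, 0.16, 0.16 and 0.17, against -0.01 to 0.00 over all genes tested, and none was called. Rps18 was at 9.32 and 8.14 log2 CPM in control and 9.50 and 8.89 in late Cux2 neurons, so that control 1 lay above late 2. In pair 2 alone 45, 41, 37 and 38 of the 52 were higher. In interneurons pair 2 held fewer, with 19 of 52 higher in Pvalb, 25 in Sst and 13 in Vip neurons, where 50.6%, 50.5% and 49.5% of all genes were. Pair 1 had 43, 51 and 49, where 54.6%, 54.0% and 54.0% of all genes were higher. Nuclear genes of oxidative phosphorylation, the respiratory chain and ATP synthase, were higher in both pairs for 24, 24, 21 and 24 of 40, and lower for 1, 2, 0 and 1. Pair 1 carried this, with 37, 38, 40 and 39 of the 40 higher, against 26, 24, 21 and 24 in pair 2, where 49.6%, 49.7%, 50.0% and 50.6% of all genes were. Atp5b, a catalytic subunit of ATP synthase, was at 9.54 and 9.36, then 9.78 and 9.88 in Cux2 neurons, without overlap (edgeR adjusted p 0.919). The 13 genes of mitochondrial DNA were higher in both pairs for 3, 2, 6 and 3.

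Several synaptic and channel lists leaned the other way, without any gene called. Of 24 or 25 genes of vesicle release tested, 12 were lower in both pairs in Cux2, 13 in Rorb, 13 in Fezf2 and 9 in Foxp2 neurons, and 0, 3, 0 and 1 were higher. Syt1, the calcium sensor of release, was at 11.34 and 11.30 log2 CPM in control and 10.98 and 10.92 in late Fezf2 neurons. Both late pools were lower (fitted change -0.37, SE 0.132, edgeR adjusted p 0.885). Complexin 2 (Cplx2) was at 9.45 and 9.28, then 9.21 and 8.82 in Cux2 neurons. In Pvalb, Sst and Vip neurons 11 of 24, 5 of 24 and 6 of 25 of this list were lower in both pairs, and 4, 2 and 6 higher. Pair 2, in which batch and stage cannot be told apart, held more of the lower ones in the projection neurons: 22, 19, 20 and 19 were lower in it, against 14, 16, 18 and 13 in pair 1. The postsynaptic scaffold list had 14 of 23 lower in both pairs in Cux2, 10 of 23 in Rorb, 12 of 24 in Fezf2 and 12 of 23 in Foxp2 neurons, with 3, 6, 4 and 3 higher. In Pvalb, Sst and Vip neurons 7 of 19, 6 of 22 and 8 of 23 of the scaffold list were lower in both pairs, and 2, 2 and 8 higher. Camk2a, the calcium kinase of spines, was at 8.70 and 8.99, then 8.39 and 8.55 in Foxp2 neurons. Nrgn was at 13.02 and 12.83, then 12.77 and 12.35 in Cux2 neurons. Of the sodium and calcium channel genes, 14 of 21, 8 of 20, 10 of 21 and 11 of 21 were lower in both pairs, and 2, 1, 4 and 5 higher. In Pvalb, Sst and Vip neurons 3, 4 and 2 of them were lower in both pairs and 1, 5 and 3 higher. In the projection neurons 18, 18, 15 and 13 of these channel genes were lower in pair 1, against 15, 9, 12 and 14 in pair 2. In Rorb neurons 11 of the 20 were higher in pair 2. Scn4b, a sodium channel subunit, was at 5.82 and 5.17, then 4.93 and 4.5 in Foxp2 neurons (fitted change -0.79, SE 0.21, edgeR adjusted p 0.862). The list of GABA-A receptors with GABA synthesis and transport had 10 of 18, 5 of 18, 4 of 16 and 3 of 17 lower in both pairs and 2, 2, 3 and 4 higher. Genes of AMPA and NMDA receptors had 5, 4, 1 and 2 of 17 lower in both pairs and 2, 4, 1 and 3 higher. Median fitted changes of the vesicle release, scaffold, and sodium and calcium channel lists lay between -0.16 and -0.09. Members of a list share pools and depth, so their counts are not independent.

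**Figure D5:**
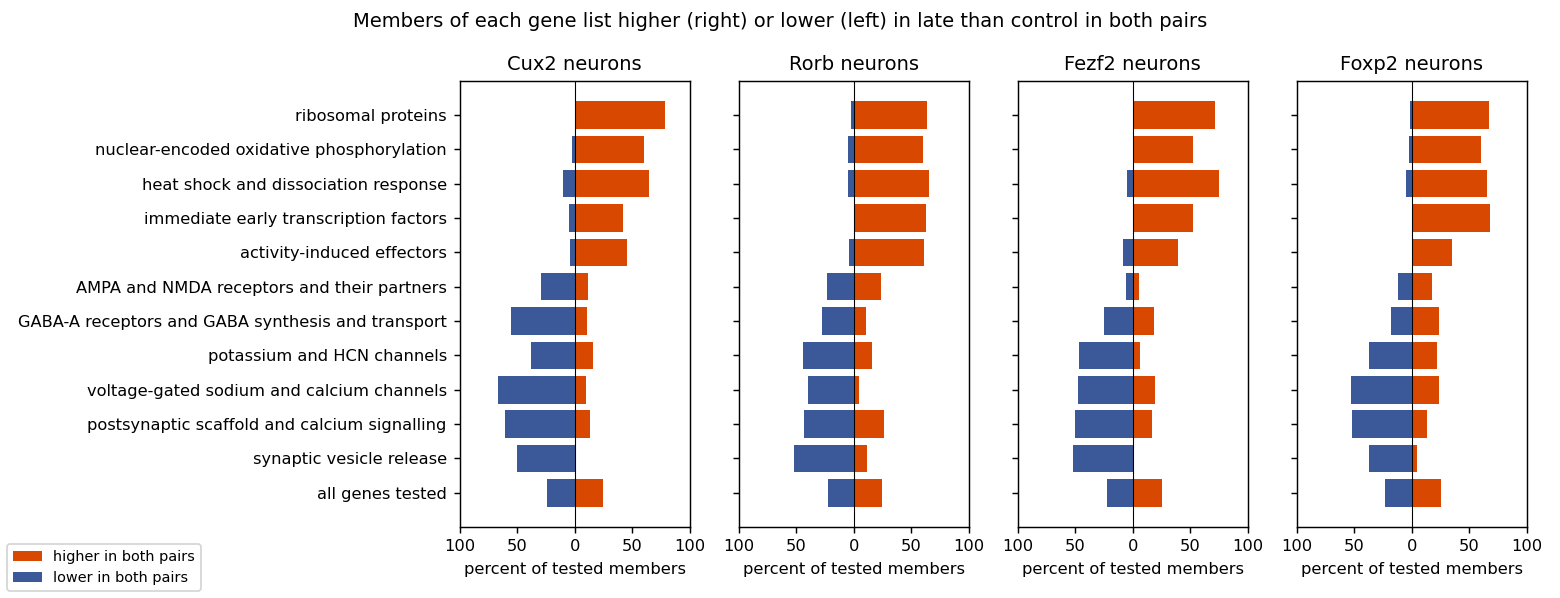
Percent of the tested members of each list that were higher (right, orange) or lower (left, blue) in late than in control in both pairs, per projection subtype. Over all genes tested 24.2% to 25.8% were higher and 22.2% to 23.7% lower.

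The reporter did not separate the stages. Its 3′ element (wpre) was found in 18.8% and 22.1% of control and 23.4% and 13.8% of late projection neurons, so the pairs differed in sign. The tdtomato feature was found in 1, 17, 4 and 7 of these cells. In microglia-like cells, which should lack the reporter, wpre was found in 5.36%, 7.48%, 7.08% and 3.14%, at medians of 1357 to 2099 UMIs against 6243 to 10544 in projection neurons. After thinning to 1000 UMIs a cell, the projection neurons stood at 5.13%, 3.98%, 5.75% and 2.01% and the microglia-like cells at 2.83%, 3.47%, 3.83% and 1.69%. At equal depth the 2 cell types were thus close in control 2 and late 2, and a UMI of wpre does not name a labelled cell there. Labelled and unlabelled neurons were therefore not separated.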

How the data were processed

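Single-cell RNA of the motor cortex was measured in 12 libraries, 8 of them late or control. The deposited values are raw UMI counts per gene and cell, made with Cell Ranger (3.1.0 per the submitters' processing notes, 3.0.2 per the file headers) on GRCm38. Of 54235 features, 54079 matched GENCODE M21 by ID. Cells were dropped below 500 genes, below 1000 UMIs or above 20% of UMIs from mitochondrial genes. The cells of highest Scrublet score (scanpy 1.11.5) were removed as doublets, at 0.8% per 1000 barcodes. Counts were summed per pool and subtype. The kit of each library was not given in the sources used here, and its class was called from shared barcodes. Replicate numbers follow record order, and pools were paired by that class, so the pairing comes from the data. The 6 motor cortex pools were fitted with edgeR 4.0.16 (R 4.3.3, TMM normalization, quasi-likelihood, stage and kit, 2 residual degrees of freedom). The SE beside an edgeR change was worked back from that change and the F statistic of its test. It does not measure the spread between the 2 pairs. P-values were adjusted by Benjamini-Hochberg within a subtype. DESeq2 1.42.0 was an alternative. Pools are of different mice, but with 2 a stage the p-values rest on little spread. Scripts were tested on simulated data.

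Genes were named by rule: every called gene, and per subtype the 3 higher and 3 lower genes of smallest p with 1 sign in both pairs and a mean of at least 5 log2 CPM. A fixed set of activity genes was added, with at most 4 members per list. Sex-linked genes were left out of that naming, and some genes that the rule names are not reported here. The members and lists were chosen with earlier results of these data known. Other settings covered the normalization, low-count filter, kit term, replicate block, each pool left out, cell filters, doublets, subtype rule, male cells, glial UMIs, hemisphere and thinning. Each pair alone was added after seeing the data. Intervals cover counting error only.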

Additional observations from a re-analysis of the deposited data

Results flagged for a closer look

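Within each stage the 4 hemisphere libraries were compared, and in 6 of 84 such groups 1 library stood far from the other three, by a gap over 0.83 of the group's range. Chance would flag about 1 group in 20 if the 4 libraries were independent. They come from 2 pools of different kit class, so that rate is only a rough guide. The values of 3 genes come from the right library of control replicate 1. Fosb in Cux2 neurons was at 34.6 CPM there, against 60.2, 61.9 and 63.2 CPM in the other control libraries. H1fx in Fezf2 neurons was at 87.6 CPM, against 108.2, 110.0 and 111.4 CPM. Nptn in Rorb neurons was at 483.5 CPM, against 740.6, 746.6 and 787.9 CPM. The left library of control replicate 1, the smallest of the 8, held 4.5% Vip neurons, against 10.5%, 10.7% and 11.0%. Junb in Cux2 neurons was at 342.5 CPM in the contralateral library of late replicate 2, against 384.2, 384.5 and 391.0 CPM. Nr4a1 in Fezf2 neurons was at 157.2 CPM in the left library of control replicate 2, against 136.3, 136.8 and 139.4 CPM.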

How the results depend on the processing

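Counts of called genes moved with the pools and cells used. The main counts were 0 in projection neurons and 3 in interneurons. With the replicate block on the 4 late and control pools, pairing each late pool with the control of its kit class, they were 137 and 40. Leaving out 1 pool gave 54 to 1123 and 43 to 187. Without the low-count filter they were 320 and 109, with RLE normalization 0 and 10, with DESeq2 2 and 1, and without the kit term 0 and 0. Stricter cells gave 0 and 1, doublets kept 0 and 9, and a marker of 2 UMIs 0 and 6. Cells counted in every subtype whose marker they hold, with cells of both transmitter classes kept, gave 0 and 70. Male cells gave 2 and 5, cells without glial UMIs 9 and 3, late contralateral libraries 3 and 6, and thinned sums 3 and 1. The cause was not tested. Cck in Sst neurons was called in 16 of 19 settings (-1.96 to -0.10), Lars2 in Pvalb neurons in 9 of 15 (1.82 to 5.10) and CT010467.1 in 7 of 15 (0.16 to 5.43). Without control replicate 2, CT010467.1 was at 0.17 and Lars2 at 4.83, neither called. No value changed sign past the threshold. Pvalb neurons were not run in male cells, in cells without glial UMIs or with late contralateral libraries only, where a pool held under 20 cells, so those interneuron counts cover Sst and Vip neurons alone. Every subtype has 2 pools a stage.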

Other observations

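Hba-a2, a haemoglobin gene, had 97.8% of its UMIs in 1 cell of the Sst neurons of late replicate 1. Crh, corticotropin-releasing hormone, was at 1.41 and 1.85 log2 CPM in control and 3.22 and 3.84 in late Cux2 neurons, a fitted change of 2.07 that was not called. These levels lie below the mean of 5 log2 CPM asked of genes named for a small p. The UMIs and cells behind them are not given here. Crh is a marker of Vip neurons, at 855.1 CPM there and 5.9 CPM in Cux2 neurons with the pools summed. Whether RNA of Vip neurons entered the Cux2 values was not tested. Microglial markers in the projection neurons went opposite ways between subtypes: 7 of 10 tested were higher in late in both pairs in Cux2 and 8 of 9 in Foxp2 neurons, while 8 of 11 were lower in both pairs in Rorb neurons.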
